A study of Mus musculus with 139 samples.

Results

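The Mir17-92 cluster of the mouse is a run of 6 microRNA (miRNA) hairpins, Mir17, Mir18, Mir19a, Mir20a, Mir19b-1 and Mir92-1, that lie in 1 transcript. These 6 genes were taken by name from a table of small RNA counts and followed across all of its tissues. They are 6 of the 6114 genes of the table, and all 6 were among the 1268 genes that passed the filter on low counts. The libraries came from 14 wild-type C57BL/6J mice, an inbred strain, aged 3 months. Bulk tissue of 10 organs gave 14 libraries each for spleen, muscle, kidney and brain, 13 each for lung, liver and heart, and 12 each for pancreas, intestine and bone marrow. A further 3 libraries were labelled testis. The table writes Mir19b-1 as Mir19b.1 and Mir92-1 as Mir92.1.

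No genotype or treatment other than wild type stands in the labels, so each organ was compared with the other organs of the same mice. The column names call animals 1 to 10 female and animals 11 to 14 male. All libraries of animals 11 to 14 with a named pool were in library pool N541. For animals 1 to 10, pool N467 held lung, pancreas, kidney, spleen and liver, and pool N469 bone marrow, heart, intestine, muscle and brain. Sex, animal set and pool N541 cannot be told apart within an organ. In bulk tissue, fewer cells of a type and less RNA per cell cannot be told apart either.

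A primary transcript of this kind is cut in the nucleus into hairpins, and each hairpin is cut again into a mature miRNA that guides Argonaute proteins to mRNAs through its seed, bases 2 to 8. The cluster is induced by Myc, is abundant in dividing and blood-forming cells, and is known for its part in B cell and lung development and as an oncogene in lymphoma. Ratios between members of the same library do not depend on how that library is scaled.

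The 6 hairpins lie on the plus strand of chromosome 14 at chr14:115043671-115044506 (GRCm38.p6), a span of 836 bases with 35 to 96 bases between neighbours. In the GENCODE M21 annotation all 6 lie within an exon of the long non-coding RNA gene Mir17hg, chr14:115042879-115046727.

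The usual mature product of each hairpin, from RefSeq, is shown in the order of the genome because its seed sets the families by which the members are described; capitals mark the seed.
miR-17-5p: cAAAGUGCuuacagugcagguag
miR-18a-5p: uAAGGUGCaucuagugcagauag
miR-19a-3p: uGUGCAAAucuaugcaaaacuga
miR-20a-5p: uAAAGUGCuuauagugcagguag
miR-19b-3p: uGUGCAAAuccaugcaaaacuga
miR-92a-3p: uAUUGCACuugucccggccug
miR-17-5p and miR-20a-5p share the seed AAAGUGC, which is also that of miR-106a-5p, miR-20b-5p, miR-106b-5p and miR-93-5p. miR-18a-5p differs from it and shares AAGGUGC with miR-18b-5p. miR-19a-3p and miR-19b-3p share GUGCAAA and differ at 1 base, U11C, counted from the 5′ end. miR-92a-3p shares AUUGCAC with miR-25-3p and miR-363-3p. The table counts reads per hairpin gene, so arms were not separated.

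A library held 10255 to 34095704 counts (median 6327550), and 8 libraries were under 100000. Pancreas was the shallowest, with a median of 100238 counts, where 3 counts correspond to a level of 29.9 CPM, which are counts per 1000000 of the library total. The 6 members summed to 21 to 6416 counts in a pancreas library and at least 28 in any other. The summed miRNAs listed for brain, heart, muscle, liver, pancreas, intestine, lung and kidney each had their highest median in the organ so labelled. For kidney this rested on Mir10a, with a median of 291660 CPM there and 160913 in lung. Mir204, listed with it, had a median of 175 in kidney and 6919 in brain. The library labelled Pancreas 11 held the intestinal Mir215 and Mir194-1 at 100731 CPM, against a median of 0.518 in pancreas and 9628 to 287712 in intestine libraries. It had only 10255 counts in all. Its label is therefore doubtful. It was kept with pancreas in the levels, shares and main fits, and leaving it out was an alternative. In the 3 libraries labelled testis, the 8 X-linked testis miRNAs summed to at most 0.138 CPM, so the data do not bear out the label and these libraries are described apart.

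Summed over the 6 members, the cluster was highest in bone marrow and spleen and lowest in brain. The summed level had a median of 48468 (12079 to 62056) CPM in bone marrow and 38769 (13668 to 54421) in spleen, with the lowest and highest library in brackets. Liver stood at 10899.6 (4383 to 20265), lung at 6447 (3487 to 18941), heart at 5669 (4125 to 10382), intestine at 4857 (661 to 13908) and pancreas at 4352 (2048 to 6931). The lowest 3 organs were kidney at 2774 (1011 to 5816), muscle at 2287 (388 to 4101) and brain at 1598 (543 to 2944). Mir92-1 made up most of this sum outside pancreas, with an organ median of at least 79.3%, so the members are described 1 by 1, each on the scale of CPM of the library total. Where levels of different members are set side by side, the order named also holds per base of hairpin.

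Mir17, the first hairpin of the cluster and the namesake of the AAAGUGC family, spread 16.2-fold between its highest and lowest organ median. Its median was highest in bone marrow, 657 (101 to 1342) CPM, followed by spleen at 423 (298 to 781) and intestine at 184 (20.004 to 358). The middle of the order held liver at 171 (35.1 to 272), heart at 118 (65.6 to 259.7), kidney at 109.8 (62.3 to 208) and pancreas at 62.6 (0 to 195). The lowest medians were in brain at 51.4 (31.1 to 263), lung at 50.9 (27.5 to 134) and muscle at 40.6 (14.6 to 58.9). Bone marrow libraries fell into 2 groups, 454 to 1342 CPM in animals 1 to 10 and 101 to 132 in animals 11 to 14. Of the 9 pairs of organs next to each other in this order, 1 differed in an edgeR fit over all genes (log2 difference of at least 1, adjusted p below 0.05, on the TMM scale), with kidney above pancreas by 2.09 on the log2 scale (95% interval 1.43 to 2.75, adjusted p = 4.48e-08); over all genes and all 45 pairs of organs, 46.3% of tests were called. The ranges of neighbouring organs overlapped in all 54 pairs over the 6 members.

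Mir20a, which carries the same seed as Mir17, had the flattest profile of the 6, with 8.36-fold between the highest and lowest organ median. Its median was highest in bone marrow, 548 (212 to 1430.0) CPM, followed by spleen at 529 (325 to 1119) and heart at 317 (176 to 683). The middle of the order held liver at 236 (50.7 to 690.2), intestine at 219.5 (25.8 to 473), kidney at 166 (97.0 to 324) and pancreas at 86.0 (0 to 282). The lowest medians were in muscle at 77.8 (21.5 to 100.2), lung at 77.7 (36.6 to 154) and brain at 65.5 (0 to 187). Heart ranked above liver and intestine for Mir20a and below both for Mir17. Mir20a was at 0 counts in 3 pancreas libraries and in 1 brain library. Among neighbours in the order, 1 of 9 pairs differed, kidney above pancreas by 2.17 on the log2 scale (95% interval 1.48 to 2.86, adjusted p = 5.32e-08), and no other neighbours were called.

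Mir18, the source of miR-18a, was the scarcest member in all 10 organs by median and the one with the widest spread, 90.9-fold. Its median was highest in bone marrow, 273 (41.6 to 609) CPM, followed by spleen at 108 (50.4 to 264) and intestine at 104 (33.5 to 207). The middle of the order held pancreas at 50.8 (0 to 780.1), liver at 15.8 (0 to 43.4), lung at 15.7 (4.55 to 22.1) and kidney at 11.4 (5.33 to 52.8). The lowest medians were in heart at 8.82 (4.65 to 39.3), brain at 8.71 (0 to 63.7) and muscle at 3.002 (0.747 to 8.67). The pancreas range reached 780.1 CPM only through the library labelled Pancreas 11, without which the highest was 80.9; the pancreas values rest on a median of 4 counts. Neighbours differed in 2 of 9 pairs, pancreas above liver by 1.15 on the log2 scale (95% interval 0.44 to 1.86, adjusted p = 0.00604) and kidney above heart by 1.69 on the log2 scale (95% interval 0.91 to 2.48, adjusted p = 0.000265). In CPM, kidney and heart had medians of 8.69 and 8.82 in animals 1 to 10, and of 32.3 and 12.0 in animals 11 to 14. In animals 1 to 10 kidney was in pool N467 and heart in pool N469, so organ and pool cannot be told apart there. Without the library labelled Pancreas 11, pancreas stood above liver by 0.80 in edgeR's fit (adjusted p = 0.0584), with no call.

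Mir19a, 1 of the 2 sources of the GUGCAAA seed in the cluster, spread 44.0-fold. Its median was highest in spleen, 642 (86.4 to 2089) CPM, followed by pancreas at 304 (0 to 1798) and bone marrow at 279 (35.9 to 973). The middle of the order held intestine at 145 (15.4 to 251), liver at 97.6 (19.99 to 461), lung at 41.0 (8.83 to 196) and kidney at 35.9 (6.63 to 239.6). The lowest medians were in heart at 28.4 (12.8 to 145), brain at 15.5 (2.57 to 58.1) and muscle at 14.6 (0.405 to 48.7). In spleen the libraries of animals 11 to 14 held 86.4 to 165 CPM and those of animals 1 to 10 457 to 2089, with no overlap. All 3 pancreas libraries of animals 11 to 14 were at 0 counts. Neighbours differed in 3 of 9 pairs. These were liver above lung by 1.27 on the log2 scale (95% interval 0.59 to 1.95, adjusted p = 0.00143), heart above brain by 2.27 on the log2 scale (95% interval 1.55 to 2.99, adjusted p = 1.76e-08), and brain and muscle, whose fitted difference of -1.01 (95% interval -1.71 to -0.32, adjusted p = 0.00811) was opposite in sign to the order of their CPM medians.

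Mir19b-1, which gives miR-19b, was the 1 member highest in pancreas, and its organ medians spread 44.7-fold. Its median was highest in pancreas, 2165 (195 to 4137) CPM, followed by spleen at 1017 (243 to 3695) and bone marrow at 477 (193 to 1770.1). The middle of the order held intestine at 286 (50.1 to 583), liver at 243 (90.0 to 1206), lung at 128 (60.7 to 488) and kidney at 112 (46.4 to 727). The lowest medians were in heart at 87.1 (47.4 to 299), brain at 61.9 (26.6 to 235) and muscle at 48.4 (10.5 to 132). The lowest pancreas library was the one labelled Pancreas 11, at 195 CPM from 2 counts. This value lies above the muscle, brain and heart medians but under the 293 CPM that 3 counts give in that library. Neighbours differed in 3 of 9 pairs, liver above lung by 1.003 on the log2 scale (95% interval 0.46 to 1.55, adjusted p = 0.00173), kidney above heart by 1.01 on the log2 scale (95% interval 0.34 to 1.68, adjusted p = 0.014) and heart above brain by 1.28 on the log2 scale (95% interval 0.74 to 1.82, adjusted p = 1.83e-05).

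Mir92-1, the last hairpin and the source of miR-92a, was the most abundant member in every organ but pancreas, and spread 39.3-fold. Its median was highest in bone marrow, 45123 (11495 to 55999.5) CPM, followed by spleen at 36034 (12609 to 50603) and liver at 9208 (3548 to 19986). The middle of the order held lung at 6118 (3324 to 18066), heart at 5186 (3575 to 9241), intestine at 3519 (305 to 12150.3) and kidney at 2326 (521 to 5307). The lowest medians were in muscle at 2064 (319 to 3816), brain at 1319 (395 to 2419) and pancreas at 1147 (480.0 to 4188). Bone marrow and spleen lay above every other library in animals 1 to 10, at 35559 to 55999.5 and 33216 to 50603 CPM, and stood at 11495 to 14405 and 12609 to 20277 in animals 11 to 14, again above the other organs of those animals. The share of counts on miRNA genes in bone marrow was 76.8% (median) in animals 1 to 10 and 34.9% in animals 11 to 14, and its part in the lower CPM there was not tested. Neighbours differed in 1 of 9 pairs, muscle above brain by 1.85 on the log2 scale (95% interval 1.25 to 2.45, adjusted p = 3.54e-08).

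**Figure D1:**
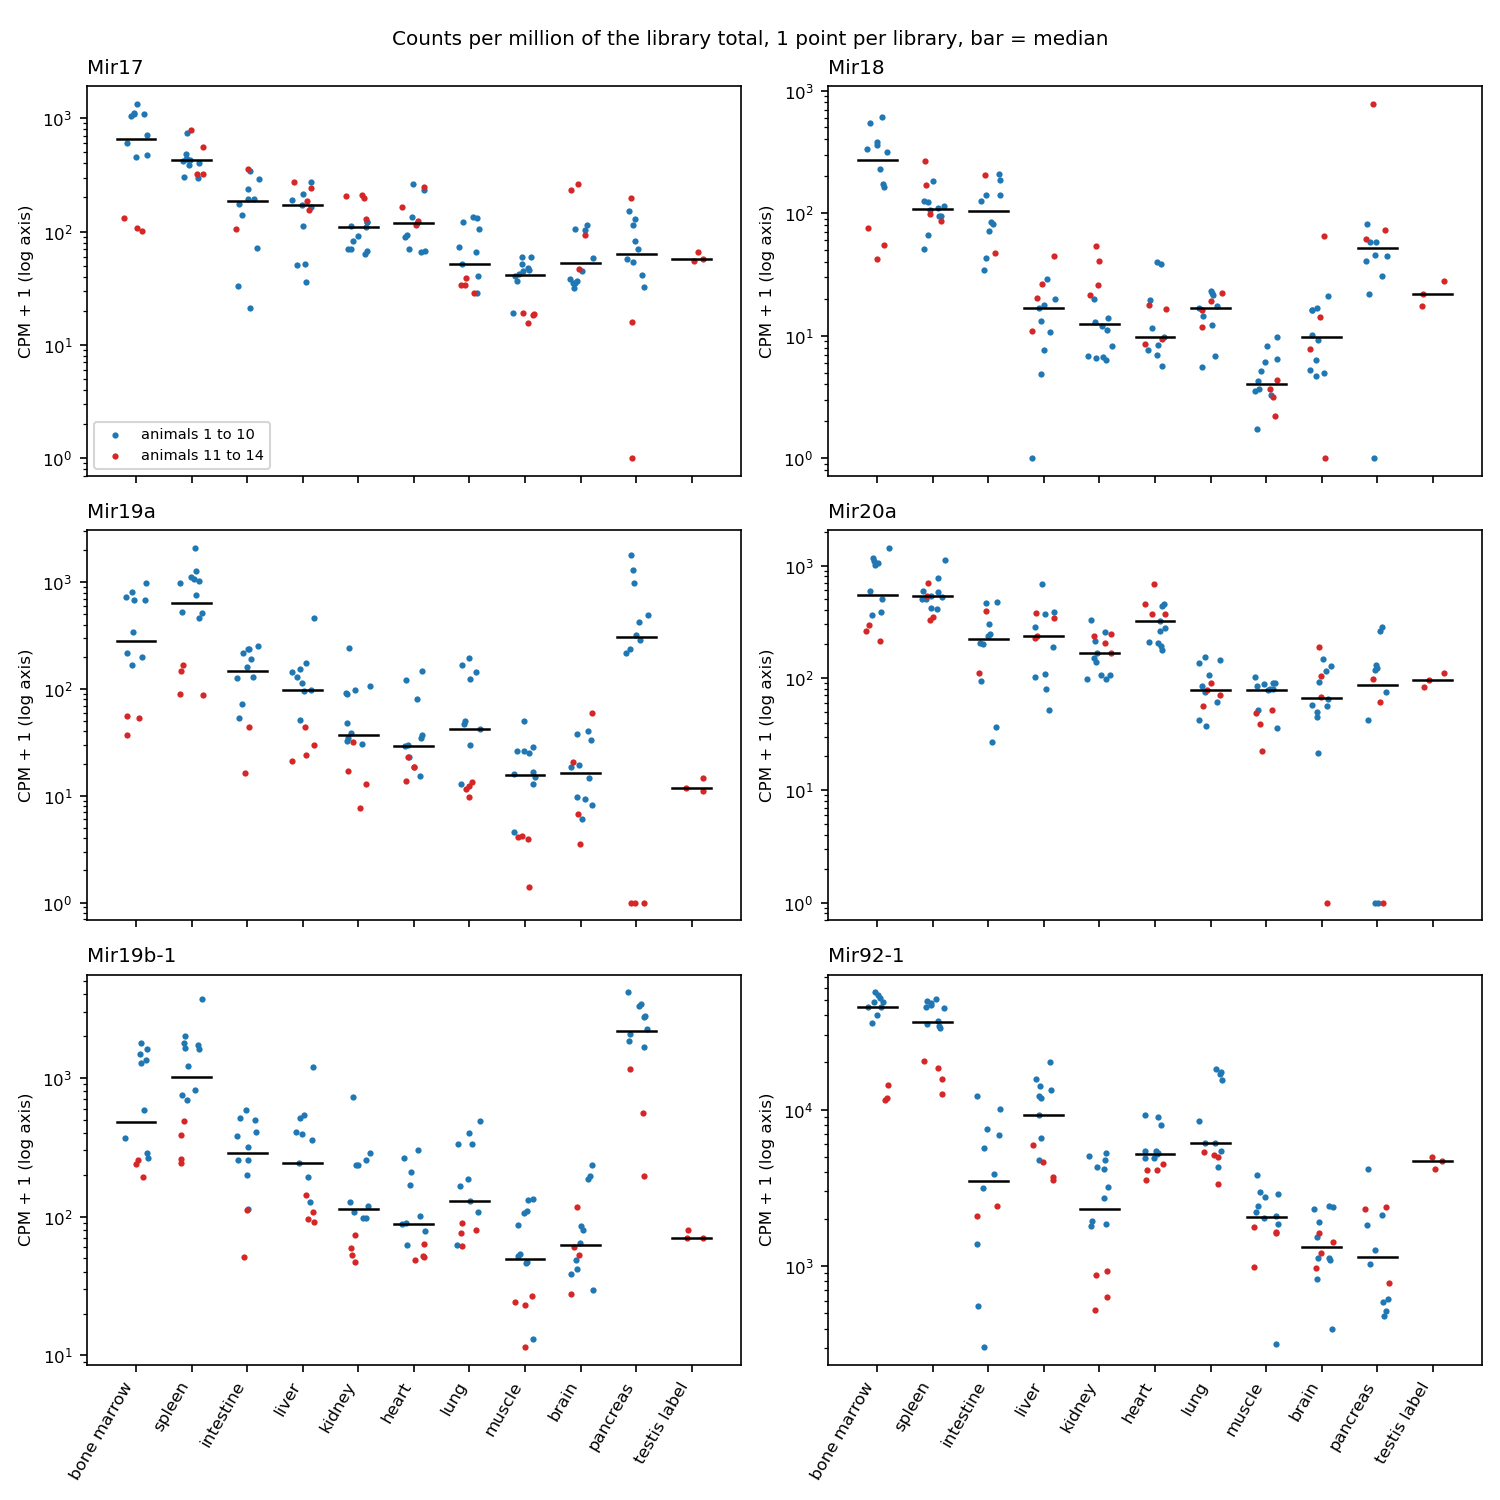
CPM of the library total plus 1 on a log axis for the 6 members in 10 organs and the 3 libraries labelled testis; each point is 1 library, blue for animals 1 to 10 and red for animals 11 to 14, and the bar is the organ median. Bone marrow and spleen hold the highest medians of Mir17, Mir18, Mir20a and Mir92-1, and pancreas the highest of Mir19b-1; points at 1 are libraries with 0 counts.

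Organs were then compared in 1 fit over all 1268 genes with edgeR's quasi-likelihood test, on the TMM scale, with the library pool as a term. Each organ was set against the mean of the other 9, and calls needed a log2 fold change of at least 1 in size together with an adjusted p (Benjamini-Hochberg) below 0.05. In the joint test over the 10 organs all 6 members differed (adjusted p below 0.05), as did 99.6% of all genes tested. Of the 60 comparisons of a member with an organ, 34 were called. In pool N541 alone Mir19a cannot be read in any organ, because its pancreas libraries, which enter each mean of the other 9 or are set against it, were at 0 counts. Values below are log2 fold changes ± standard error on this scale, which differs from CPM of the library total.

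In bone marrow, the main site of blood formation, 5 of the 6 members were higher and 0 lower, where 30.1% of all genes were higher and 18.8% lower. Mir92-1 rose by 2.32 ± 0.25 (adjusted p = 3.89e-15), Mir18 by 2.06 ± 0.28, Mir17 by 1.55 ± 0.26, Mir19a by 1.49 ± 0.28 and Mir20a by 1.11 ± 0.27. Mir19b-1 stood at 0.87 ± 0.23, under the fold threshold. The median over the 6 was 1.52, beside 0.29 over all genes tested. The animal sets did not give the same picture for every member. In animals 1 to 10 alone Mir17 stood at 1.99 and Mir18 at 3.02; in pool N541 alone they stood at -0.06 and 0.74 and were not called, whereas Mir92-1 stood at 2.18 and 2.002 and was called in each. The call of Mir20a ended in 6 of 18 alternatives, among them pool N541 alone (0.55) and leaving out the library labelled Pancreas 11 (0.89) or Testis 13 (0.93).

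In spleen, a lymphoid organ that also forms red cells in the mouse, all 6 members were higher and 0 lower, against 21.6% and 14.8% of all genes. Mir19a rose by 2.14 ± 0.26 (adjusted p = 3.41e-12), then Mir18 by 2.05 ± 0.25 and Mir92-1 by 2.01 ± 0.23. Mir19b-1 rose by 1.40 ± 0.21, Mir17 by 1.39 ± 0.23 and Mir20a by 1.04 ± 0.25. In animals 1 to 10 alone Mir17 (0.81) and Mir20a (0.70) fell under the fold threshold, and in pool N541 alone the 5 members other than Mir19a were all called higher. The median over the 6 was 1.70, beside 0.01 over all genes.

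Listed markers of blood cells were measured in the same libraries. The myeloid Mir223 had a median of 5714 CPM in bone marrow, 687 in spleen and 8.91 to 87.4 in the other organs. Mir142, listed with it but expressed throughout blood cells, stood at 15586 in bone marrow and 20788 in spleen, and at 190.2 to 2195 elsewhere. The erythroid Mir144, Mir451a and Mir486 summed to 155637 (31080 to 195298) in bone marrow and 51018 (14112 to 137903) in spleen. Their sum was above that of spleen also in heart, 140523 (60101 to 171614), and muscle, 64968 (35914 to 137063), mostly Mir486, which striated muscle also expresses. In heart 1 member was higher and 2 were lower, and in muscle 4 were lower. The lymphoid Mir150, Mir155, Mir181a-1 and Mir181b-1 summed to 9827 (4255 to 12906) in bone marrow and 11652 (7364 to 25079.5) in spleen. They reached 10307 (5055 to 18616) in lung, where 2 members were lower, and 38088 (9628 to 60857) in brain, where all 6 were lower. Most of this was Mir181a-1, with a median of 35693 CPM in brain, 9864 in lung, 8044 in bone marrow and 2928 in spleen. Mir181b-1 was also highest in brain, at 1963. Mir150 and Mir155 went the other way and were highest in spleen, at 6479 and 588. They stood at 498 and 7.04 in brain and at 360 and 31.6 in lung. All 9 listed markers had a median above 0 in each of the 10 organs, and their part in the members' levels was not tested.

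In brain all 6 members were lower and 0 higher, where 22.2% of all genes were lower and 36.8% higher. Mir19a fell furthest, -3.20 ± 0.35 (adjusted p = 6.68e-15), followed by Mir92-1 at -2.72 ± 0.29, Mir18 at -2.58 ± 0.31 and Mir19b-1 at -2.47 ± 0.26. Mir20a stood at -2.09 ± 0.29 and Mir17 at -1.75 ± 0.27. With library totals in place of TMM factors Mir17 was at -0.93 and lost its call. The calls of Mir18, Mir20a, Mir19b-1 and Mir92-1 held in all 18 alternatives.

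In muscle 4 members were lower and 0 higher, against 11.0% and 20% of all genes. Mir18 stood at -3.17 ± 0.32 (adjusted p = 2.98e-16), the lowest of its 10 organs, Mir19a at -2.07 ± 0.32, Mir19b-1 at -1.65 ± 0.25 and Mir17 at -1.38 ± 0.27. Mir20a at -0.87 ± 0.28 and Mir92-1 at -0.66 ± 0.26 did not reach the fold threshold. On the scales of library totals and of miRNA totals all 6 were called lower, where 27.6% and 32.0% of all genes were.

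Pancreas divided the cluster: 3 members were higher and 3 lower, beside 11.5% and 22.3% of all genes. Mir19b-1 rose by 2.21 ± 0.23 (adjusted p = 1.38e-15), Mir19a by 1.42 ± 0.32 and Mir18 by 1.22 ± 0.31. Mir92-1 stood at -2.60 ± 0.31 (adjusted p = 1.19e-12), Mir20a at -1.48 ± 0.32 and Mir17 at -1.44 ± 0.31. The rises thus lay on both GUGCAAA hairpins and on Mir18, and the falls on both AAAGUGC hairpins and on Mir92-1. Mir18 rested on few counts: it stood at 0.81 without the library labelled Pancreas 11 and at 0.50 in animals 1 to 10, with no call in either. Mir19a was called in animals 1 to 10 (2.23) but was at 0 counts in all 3 pancreas libraries of animals 11 to 14, and its call ended without the library labelled Testis 11 or Testis 12 (0.91 in each case). On library totals Mir17 (-0.79) and Mir20a (-0.97) were no longer called. The calls of Mir19b-1 and Mir92-1 held in all 18 alternatives. The median over all genes in this comparison was -0.96.

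In intestine, whose lining renews itself constantly, 2 members were higher and 0 lower, against 34.9% and 10.6% of all genes. Mir18 rose by 2.29 ± 0.26 (adjusted p = 7.58e-14), the largest value of Mir18 on this scale, and Mir19a by 1.44 ± 0.30. The call of Mir18 held in all 18 alternatives; Mir19a stood at 0.68 on library totals and at 0.83 in animals 1 to 10, without a call. Mir17 (0.91 ± 0.25), Mir19b-1 (0.85 ± 0.24), Mir20a (0.80 ± 0.27) and Mir92-1 (0.25 ± 0.28) stayed under the fold threshold.

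In heart 1 member was higher and 2 were lower, with 12.1% and 16.5% of all genes. Mir20a rose by 1.06 ± 0.24, while Mir17, of the same seed, stood at 0.07 ± 0.24. Mir18 stood at -1.58 ± 0.29 and Mir19b-1 at -1.04 ± 0.24. Of these, Mir18 lost its call in animals 1 to 10 (-0.67). Mir20a lost it in animals 1 to 10 (0.97) and on the scales of library and miRNA totals, and Mir19b-1 in 8 of 18 alternatives, among them leaving out the library labelled Pancreas 11 (-0.79) or Testis 13 (-0.78).

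In lung 2 members were lower and 0 higher, beside 14.1% and 17.0% of all genes. Mir20a stood at -1.24 ± 0.28 and Mir19a at -1.003 ± 0.30. Without the library labelled Testis 11 or that labelled Testis 12 the values were -0.49 for Mir20a and -0.27 for Mir19a, and neither was called; Mir19a was called in 4 of 18 alternatives. Mir92-1 stood at 0.59 ± 0.25. Without either of those testis-labelled libraries 1 member was called higher in lung and 0 lower, where 33.2% and 33.1% of all genes were higher.

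In kidney 0 members were higher and 0 lower, against 14.0% and 18.4% of all genes. The values ran from -0.41 ± 0.27 for Mir92-1 to 0.93 ± 0.25 for Mir20a. This outcome depended on the scale and the animals: 2 members, Mir17 and Mir20a, were higher with DESeq2's Wald test, 1 was lower on library totals, as were 42.5% of all genes, and 3 were lower on miRNA totals, as were 48.1% of all genes, where the median over the 6 was -1.09 and that over all genes -1.55. In pool N541 alone, Mir19a left aside, Mir17 (2.06), Mir20a (1.62) and Mir18 (1.16) were called higher in kidney and Mir92-1 (-1.12) lower, and in liver Mir17 (1.22) and Mir20a (1.06) higher. In liver 0 were higher and 0 lower (11.1% and 20.1% of all genes), with values from -0.06 ± 0.29 for Mir18 to 0.90 ± 0.25 for Mir92-1, and DESeq2's Wald test called 0. In liver 1 member was called higher with no pool term, without the 3 testis-labelled libraries and in animals 1 to 10 alone: Mir92-1 at 1.22, 1.01 and 1.42. In edgeR's main fit 2 members in kidney, Mir17 (0.89) and Mir20a (0.93), had an adjusted p below 0.05 but missed the fold threshold. The same held for 3 in liver, Mir17 (0.75), Mir20a (0.74) and Mir92-1 (0.90).

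**Figure D2:**
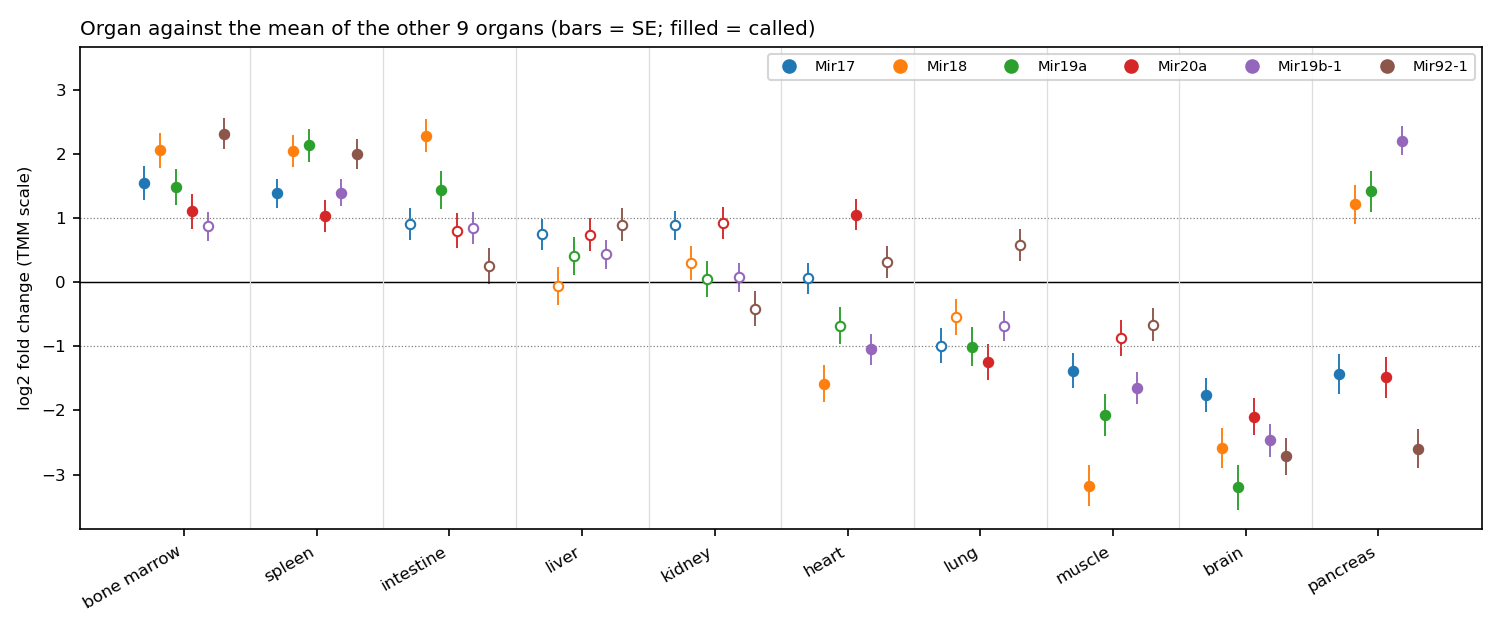
log2 fold change of each member in each organ against the mean of the other 9 organs on the TMM scale; points are fitted values, bars standard errors, filled points are called, and dotted lines mark a size of 1. All 6 members are above 1 in spleen and below -1 in brain, and in pancreas Mir19b-1 and Mir92-1 lie on opposite sides of 0.

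The balance between members was described as each member's share of the cluster's counts, divided by hairpin length (80 to 107 bases). Mir92-1 held the largest share in all but 7 of the 131 libraries of the 10 organs. Those 7, all labelled pancreas, had their largest share on Mir19b-1. The share of Mir92-1 had a median of 96.1% (94.9 to 97.2%) in lung, 94.6% (91.2 to 97.4%) in bone marrow and 93.2% (86.7 to 95.1%) in spleen. It was 87.2% (65.3 to 92.8%) in brain, 83.6% (55.4 to 92.08%) in kidney and 81.1% (48.4 to 90.6%) in intestine.

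In pancreas the share of Mir92-1 was 36.1% (8.04 to 79.4%) and that of Mir19b-1 47.7% (9.60 to 78.5%), against an organ median of Mir19b-1 between 1.47% and 4.25% in the other organs. The animal sets differed in median within pancreas, with ranges that overlapped: Mir19b-1 held 57.6% (26.4 to 78.5%) in animals 1 to 10 and 17.0% (9.60 to 30.9%) in the 3 libraries of animals 11 to 14, the lowest being the one labelled Pancreas 11. The library labelled Pancreas 11 had 34.8% of its share on Mir18, from 21 counts over the cluster. Intestine held the highest median share of Mir18, 2.49% (0.595 to 5.54%), where the next organ medians were 0.880% in pancreas and 0.502% in bone marrow. Kidney of animals 11 to 14 gave Mir17 15.5% (10.1 to 19.8%) and Mir20a 14.1% (10.3 to 16.1%), and kidney of animals 1 to 10 2.36% (1.14 to 5.02%) and 2.98% (1.31 to 10.4%).

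All 6 members' shares differed among the 10 organs in a permutation test of log2(member + 0.5) over (the other 5 + 0.5), with organ labels permuted within animals. Each gave p = 1e-05 (unadjusted), the smallest that 100000 permutations can give, over 131 libraries with at least 20 cluster counts, and each also passed after adjustment over the 6 tests. The F statistic ran from 10.3 for Mir17 to 44.3 for Mir19b-1. All 6 passed as well without the pancreas libraries, a setting chosen after the data were seen. Because shares sum to a whole, the 6 tests are not independent. The test had no pool term. In animals 1 to 10 organs of pool N467 were permuted with those of pool N469, so organ and pool are mixed in it.

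**Figure D3:**
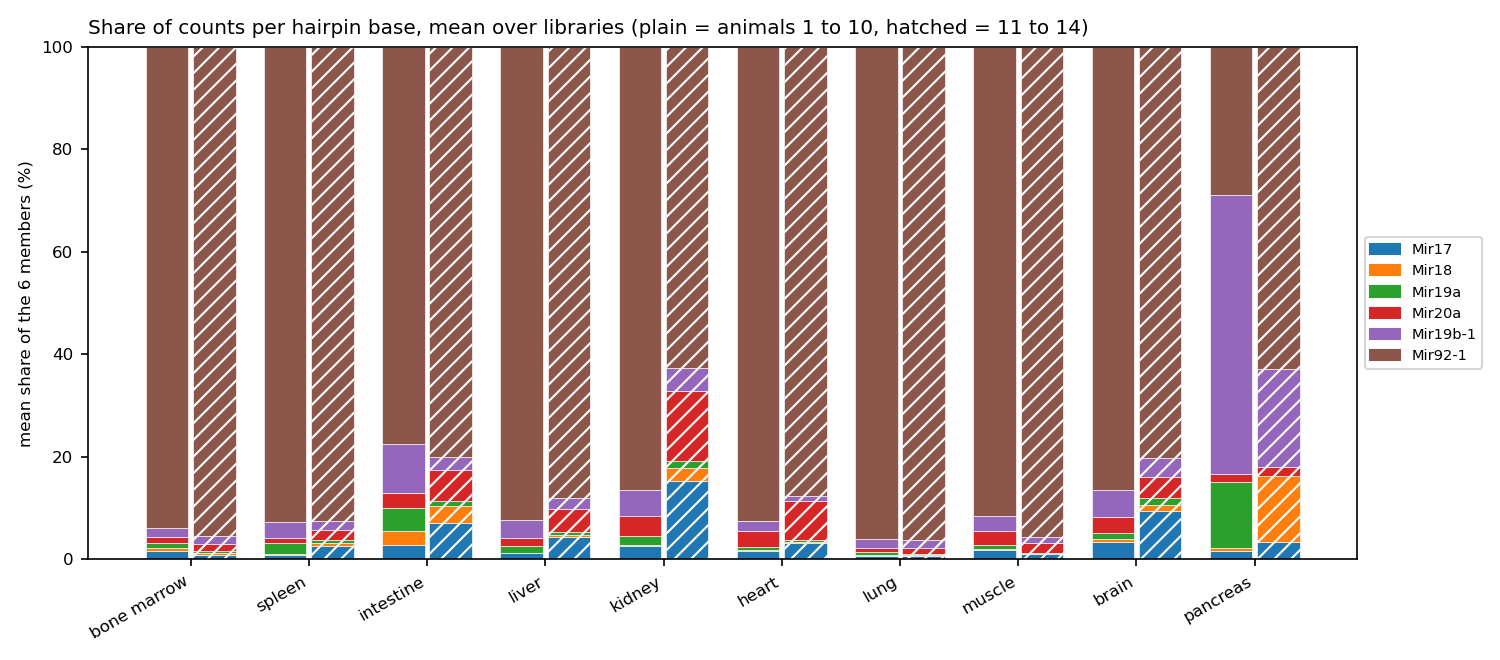
Mean share of each member per hairpin base among the 6, as stacked bars from 0 to 100%, plain for animals 1 to 10 and hatched for animals 11 to 14. Mir92-1 takes the largest part of each bar except that of pancreas in animals 1 to 10, where Mir19b-1 does.

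Bone marrow and spleen, the organs with the highest levels, were also compared with each other. On the TMM scale 0 of the 6 members were called, where 15.1% of all genes were higher in bone marrow and 16.2% lower; at an unadjusted p below 0.05 edgeR gave 0 members and DESeq2's Wald test called 0. The differences, bone marrow minus spleen, ran from -0.58 ± 0.43 for Mir19a to 0.28 ± 0.38 for Mir92-1. For Mir17 and Mir18 the animal sets gave opposite signs. In animals 1 to 10 alone Mir17 was higher in bone marrow by 1.06 and Mir18 by 1.73, and both were called. In pool N541 alone they stood at -1.96 and -1.28 and were called lower, with Mir19a at -1.20. In animals 1 to 10 all bone marrow was in pool N469 and all spleen in pool N467, so organ and pool cannot be told apart there.

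Within an animal, the share of Mir19a in the cluster was lower in bone marrow than in spleen in 12 of 12 animals, with a mean difference of -1.16 ± 1.01 on the log2 scale (mean ± SD of the paired difference; exact sign-flip permutation p = 0.000488, unadjusted and the smallest the design can give). This was the 1 member of 6 that passed after adjustment over the 6 tests. Mir19b-1, of the same seed, differed by -0.86 ± 1.26 (exact permutation p = 0.0229, lower in 9 of 12 animals), and Mir18 by 0.88 ± 1.35 (exact permutation p = 0.0498, higher in 9 of 12). In the 9 animals 1 to 10 with both organs, Mir17, Mir18 and Mir19a passed, with Mir18 higher in 9 of 9, again with each organ in a pool of its own. In the 3 animals of pool N541, 5 members, Mir17 and Mir18 among them, had a lower share in 3 of 3 (mean log2 difference -1.74 for Mir17 and -1.03 for Mir18), and the smallest exact p possible there is 0.25.

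Animals 11 to 14 were compared with animals 1 to 10 within each organ, a contrast in which set, sex by the column names and pool cannot be told apart. Of 60 tests 26 were called, 3 higher and 23 lower in animals 11 to 14, where 8.45% of tests over the 1029 genes of this fit were higher and 16.2% lower. Of the 26 calls, 19 fell on the 2 GUGCAAA hairpins. Mir19a was lower in 10 of 10 organs and Mir19b-1 in 9 of 10, bone marrow being the exception at -0.72 ± 0.44. In that organ its X-linked copy Mir19b-2, which gives the same mature product, stood at -3.01 ± 0.52, and how shared reads were placed is not given in the sources used here. Mir20a was called in 0 organs by edgeR, and in 0 at an unadjusted p below 0.05. The median over all genes was itself below 0 in all organs but bone marrow, lung and spleen, and furthest in intestine (-1.52), pancreas (-1.39), kidney (-1.09) and brain (-0.93), so that the calls of Mir19b-1 in pancreas, brain, intestine and kidney, of Mir19a in brain and intestine and of Mir17 in muscle lay less than 1 from it.

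For Mir19a the median in spleen was 119 CPM in animals 11 to 14 and 997 in animals 1 to 10, a difference of -2.22 ± 0.52 on the TMM scale (adjusted p = 0.000396). In liver the medians were 25.8 and 128 CPM (-2.80 ± 0.56), and in muscle 3.03 and 20.05 (-2.64 ± 0.54). The libraries of the 2 sets did not overlap in CPM in 6 organs, namely bone marrow, intestine, liver, muscle, pancreas and spleen. In pancreas the 3 libraries of animals 11 to 14, with 90300 counts in all, held 0 of Mir19a, which is at least 17.1-fold lower than in animals 1 to 10 with a floor of 3 counts over the group, or at least 15.2-fold without the library labelled Pancreas 11.

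Mir19b-1 followed with 323 against 1626 CPM in spleen (-1.42 ± 0.40), 101 against 392 in liver (-2.30 ± 0.44) and 558 against 2764 in pancreas (-1.83 ± 0.49). Mir92-1 was lower in kidney (-2.25 ± 0.46) and liver (-1.72 ± 0.45). Mir17 was lower in bone marrow (-1.65 ± 0.44) and muscle (-1.04 ± 0.38), and in kidney it stood at 0.97 ± 0.34. Mir18 was higher in kidney (1.79 ± 0.43), spleen (1.26 ± 0.41) and pancreas (2.29 ± 0.61). In kidney Mir18 was thus higher and Mir19a, Mir19b-1 and Mir92-1 lower. The pancreas value of Mir18 rests on 8, 4 and 1 counts in animals 11, 12 and 13, the 8 from the library labelled Pancreas 11, without which it stood at 0.40 and was not called; nor was Mir19b-1 in pancreas (-1.74, adjusted p = 0.0577) or Mir17 in muscle (-0.88) in that fit with edgeR. The call of Mir18 in spleen ended under 3 of 5 alternatives (0.54 at the lowest). With no filter on low counts 13 of the 60 tests were called, and in brain the call of Mir19a ended under 4 of the 5 alternatives, where it came as close to 0 as -1.03.

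Whether this difference depended on the organ was tested as an interaction, which passed (adjusted p below 0.05) for 53.7% of those 1029 genes. It passed for Mir17 (adjusted p = 3.20e-05), Mir18 (0.000534), Mir92-1 (0.00968) and Mir19a (0.0307), and not for Mir19b-1 (0.265) or Mir20a (0.473).

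**Figure D4:**
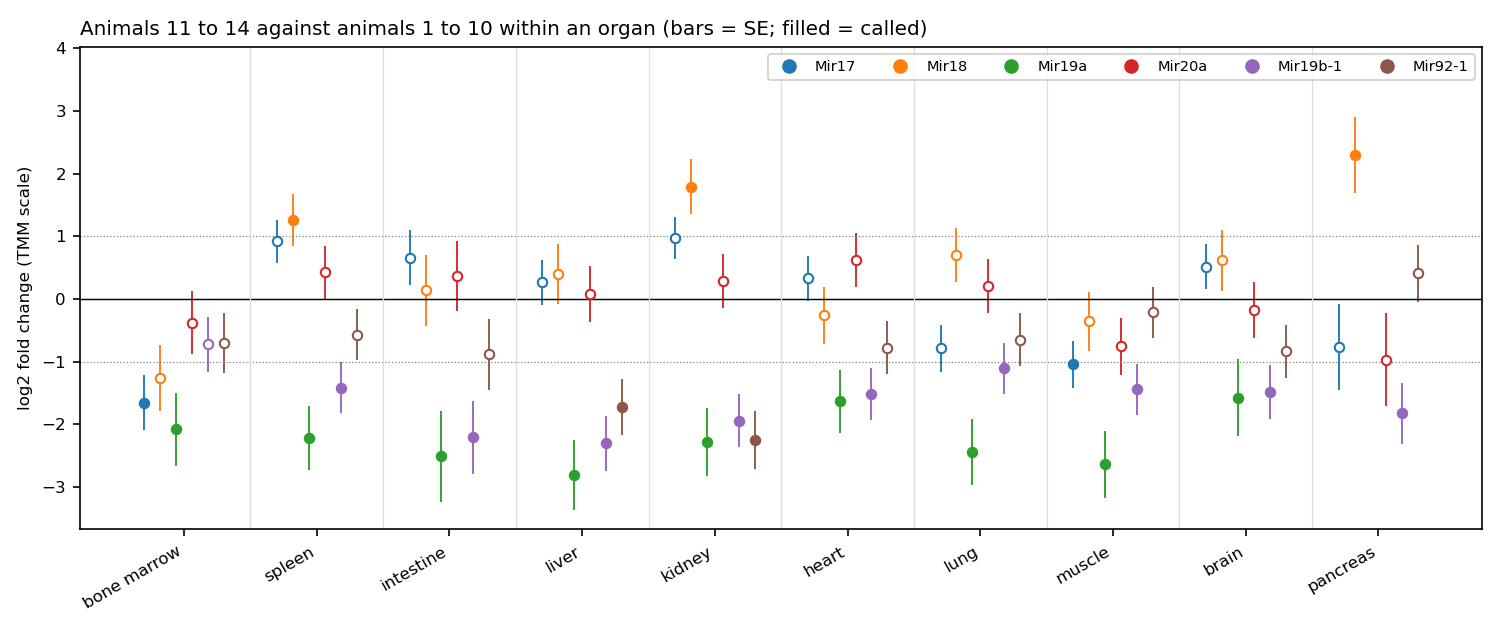
log2 difference of animals 11 to 14 from animals 1 to 10 within each organ on the TMM scale; points are fitted values, bars standard errors, filled points are called, and Mir19a in pancreas is left out because 1 set was at 0 counts. Mir19a is below -1 in the 9 organs shown and Mir20a is open, not called, in all 10.

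The mature miR-19b-3p can come from Mir19b-1 on chromosome 14 or from Mir19b-2 on the X chromosome, and miR-92a-3p from Mir92-1 or Mir92-2, so reads of these products cannot be placed by sequence. The Mir19b hairpins are shown with miR-19b-3p in capitals to show what differs between the copies, which are 23 edits apart over 87 and 84 bases. Mir19b-1 lies at chr14:115044305-115044391 (plus strand) and Mir19b-2 at chrX:52741983-52742066 (minus strand) of GRCm38.p6, and the sequences are RefSeq's.
Mir19b-1: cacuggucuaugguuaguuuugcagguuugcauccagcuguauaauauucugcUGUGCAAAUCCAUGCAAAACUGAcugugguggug
Mir19b-2: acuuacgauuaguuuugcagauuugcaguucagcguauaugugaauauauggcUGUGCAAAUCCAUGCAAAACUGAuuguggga
In animals 1 to 10 the 2 genes held nearly equal counts in every organ. Mir19b-1 took 49.6% (49.2 to 50.6%) of their sum in bone marrow, 49.7% (49.4 to 50.2%) in spleen and 50.2% (48.8 to 51.3%) in lung (median, lowest and highest library with at least 20 counts over both). In animals 11 to 14 it took 83.3% (82.0 to 83.7%) in bone marrow, 68.9% (65.8 to 74.5%) in lung and 65.6% (59.1 to 69.6%) in muscle, with no overlap with animals 1 to 10. Brain at 60% (52.6 to 64.6%) and heart at 54.7% (52.2 to 59.5%) of animals 11 to 14 also lay above every library of animals 1 to 10 there, which reached 52.1% and 52.0%. In spleen of animals 11 to 14 the share was 50.8% (50.4 to 52.3%), narrowly above every library of animals 1 to 10, which reached 50.2%. In liver of animals 11 to 14 the share was 47.7% (38.0 to 52.1%). In the libraries labelled testis it was 66.4% (63.8 to 66.9%). How the authors' counting placed shared reads is not given in the sources used here. Summing each copy with its partner left 34 of 60 organ comparisons called, and the same 34.
Mir92-1 took 94.9% (92.0 to 96.5%) of the sum with Mir92-2 in spleen and 98.9% (97.6 to 99.7%) in liver of animals 1 to 10, and 90.2% (87.2 to 93.3%) in kidney of animals 11 to 14, far from the near-equal division of the Mir19b genes.

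**Figure D5:**
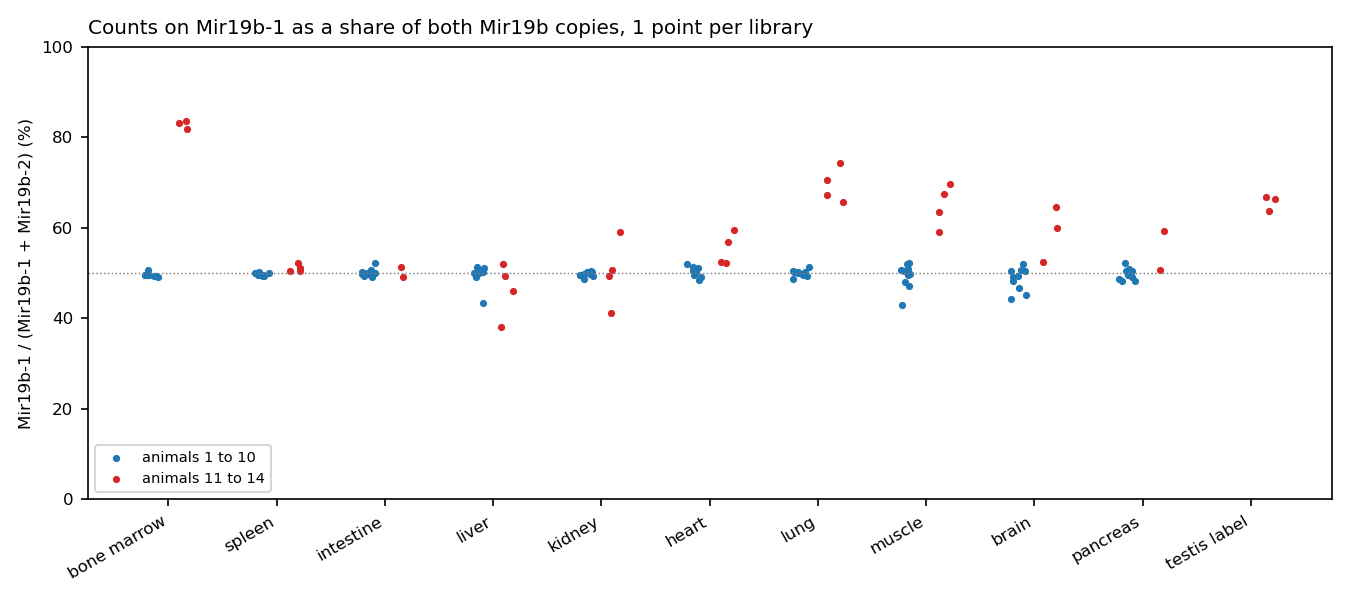
Counts on Mir19b-1 as percent of both Mir19b genes, 1 point per library with at least 20 counts over both, blue for animals 1 to 10 and red for animals 11 to 14, with a dotted line at 50%. Animals 1 to 10 lie close to 50% in every organ. The bone marrow, lung, muscle, brain, heart and, narrowly, spleen libraries of animals 11 to 14 lie above those of animals 1 to 10. The testis-labelled libraries lie above 50%.

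The paralogous clusters share seeds of the usual mature products with Mir17-92. Mir106a-363 holds all of them. Mir106b-25 holds only AAAGUGC, that of Mir17 and Mir20a, and AUUGCAC, that of Mir92-1. Mir106a-363 on the X chromosome holds Mir106a, Mir18b, Mir20b, Mir19b-2, Mir92-2 and Mir363, and Mir106b-25, within Mcm7 on chromosome 5, holds Mir106b, Mir93 and Mir25. All 9 passed the filter. In spleen 6 of 6 genes of Mir106a-363 and 3 of 3 of Mir106b-25 were higher, and in bone marrow 5 of 6 and 3 of 3, against the 21.6% and 30.1% of all genes given above. In brain 6 of 6 and 2 of 3 were lower, beside 22.2% of all genes. In muscle 5 of 6 and 3 of 3 were lower, beside 11.0%. The X-linked cluster was higher in kidney in 4 of 6 genes, beside 14.0% of all genes. There 0 of the 6 members of Mir17-92 were called. The X-linked cluster was lower in liver in 4 of 6 (20.1% of all genes) and in heart in 5 of 6 (16.5%). Its 6 genes include Mir19b-2 and Mir92-2, which share mature products with Mir19b-1 and Mir92-1. The 4 in kidney and the 4 in liver were Mir106a, Mir18b, Mir20b and Mir363. In liver their means were 0.580, 0.053, 0.830 and 1.65 CPM, where 3 counts in a library of median depth correspond to 3.03 CPM. These liver calls thus rest on few counts. In heart Mir106a and Mir18b, at means of 0.502 and 0.110 CPM, were also under the level of 3 counts (0.583), and likewise in brain and muscle. Mir20b had a median of 18.5 (8.69 to 30.6) CPM in kidney and 0.349 (0 to 3.03) in liver, and Mir20a, which differs from it by 2 bases in the mature product, 166 (97.0 to 324) and 236 (50.7 to 690.2). The difference between the clusters was not tested.

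With both animal sets in 1 fit, bone marrow and spleen did differ for X-linked paralogs. Mir18b was lower in bone marrow, at -2.35 ± 0.57 (adjusted p = 0.000545 in edgeR's fit). Mir20b stood at -2.14 ± 0.49, Mir106a at -1.91 ± 0.51, Mir363 at -1.71 ± 0.41 and Mir19b-2 at -1.33 ± 0.37. Mir92-2 and the 3 genes of Mir106b-25 were not called. Mir19b-1, which gives the same mature product as Mir19b-2, stood at -0.47 ± 0.34, with no call. In animals 11 to 14 Mir19b-1 took 83.3% of the counts of both genes in bone marrow and 50.8% in spleen. In animals 1 to 10 it took 49.6% and 49.7%. The part of this division in the call of Mir19b-2 was not tested. By median level Mir93 (2846 CPM) and Mir25 (2652) were the highest paralogs in bone marrow, whereas Mir106a (16.0) and Mir18b (12.9) were scarce there.

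Members did not run in parallel across libraries. Over the 131 libraries, which share depth and composition, log2(CPM + 1) of Mir19a and Mir19b-1 had a Pearson r of 0.843 and that of Mir17 and Mir20a 0.785, the highest 2 of 15 pairs. Mir20a and Mir19b-1 had the lowest, 0.234. Within organs, Mir19a and Mir19b-1 ranged from 0.821 in brain to 0.985, and Mir17 and Mir92-1 from -0.891 in kidney to 0.970. Over all organs together, the r of Mir19a and Mir19b-1 was 0.287 within animals 11 to 14 and 0.951 within animals 1 to 10. The value for animals 11 to 14 includes their pancreas libraries, all at 0 counts of Mir19a, where Mir19b-1 had a median of 558 CPM. The part of these libraries in that r was not tested. All r values here are descriptions without a test.

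The genes whose mean log2(CPM + 1) over the 10 organs was most like that of the summed members were the snoRNAs Gm22422 (Pearson r = 0.952, 10 organs) and Snord34 (0.945) and the miRNA genes Mir142 (0.935), expressed throughout blood cells, Mir5100 (0.923) and Gm47301 (0.912). Mir142 had a median of 15586 CPM in bone marrow, 20788 in spleen and 253 in brain. For single members the nearest genes were Gm26132 for Mir17 (r = 0.931), a tRNA gene for Mir18 (0.951), Gm25517 for Mir19a (0.949), Snora17 for Mir20a (0.884), Snord65 for Mir19b-1 (0.952) and Gm22581 for Mir92-1 (0.944), all snoRNA genes but the tRNA gene. All the genes named here were picked from all genes tested for this likeness. Several were scarce, with a highest organ median of 3.42 CPM for Gm22422, 4.62 for Mir5100 and 1.11 for Gm47301. For Gm26132 it was 1.08 and for Gm25517 1.45. Each of these scarce genes had a median of 0 in pancreas.

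In the 3 libraries labelled testis, of animals 11, 12 and 13, Mir92-1 stood at 5008, 4179.7 and 4676 CPM, Mir20a at 82.5, 95.3 and 110.1 and Mir17 at 54.1, 56.3 and 65.3. Mir19b-1 stood at 68.7, 69.7 and 79.0, Mir18 at 16.6, 20.8 and 26.8 and Mir19a at 10.8, 10.1 and 13.6. The 3 libraries lay close together and within the range of the other organs for each member. Against the mean of the 10 organs 0 of the 6 were called, where 14.3% of all genes were higher and 6.86% lower; at an unadjusted p below 0.05 edgeR gave 1, Mir92-1, and DESeq2's Wald test called 1. Mir92-1 stood at 1.08 ± 0.42 (adjusted p = 0.0525) and was called without the library labelled Testis 11 (1.498) or Testis 12 (1.51). Each of these columns could be either of 2 samples with the same title, and their pool was taken to be N541.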

How the data were processed

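Small RNA of bulk mouse tissue was sequenced as single reads after TruSeq small RNA library preparation, per the labels' protocols. The authors deposited 1 table of raw counts per small RNA gene with 134 columns. STAR 2.5.1, featureCounts and the build mm10/GRCm38 are named in the submitters' processing notes; the handling of reads that match several genes, and of strand, is not given in the sources used here. TruSeq ligates adapters to RNA ends, so members may be captured unequally and their ratios are relative. Of 139 samples listed, 5 were not analysed here.

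The main test was edgeR's quasi-likelihood F test without its Poisson bound (edgeR 4.0.16, limma 3.58.1, R 4.3.3), fitted on 1268 genes that passed filterByExpr by organ (minimum count 10), after TMM scaling, with organ and library pool as terms and Benjamini-Hochberg adjustment over all genes of a comparison. The set comparison used 1029 genes of the 10 organs. DESeq2 1.42.0 was an alternative. Shares, permutation tests and figures were made in Python 3.11.15 with numpy 2.4.6, pandas 2.3.3 and matplotlib 3.10.9. Scripts were tested on simulated data. CPM here divide by the library total, with 1 added before a log. Replicate numbers in the titles are taken as animals, which gives the pairing of organs within an animal; the fit with the animal as a block was an alternative. Where libraries of an organ come from 1 pool and set, their spread may be technical in part.

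The members and lists were chosen with earlier results of these data known. Named are all members and 9 paralogs, listed cell type markers where a result turns on them, the 5 genes nearest to the summed members and the nearest to each member by Pearson correlation over organ means. Floors of 3 counts cover counting error only.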

Additional observations from a re-analysis of the deposited data

Results flagged for a closer look

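For 4 of the 6 members the difference between animals 11 to 14 and animals 1 to 10 depended on the organ in edgeR's interaction test, as it did for 53.7% of all genes tested. The adjusted p was 3.20e-05 for Mir17, 0.000534 for Mir18, 0.00968 for Mir92-1 and 0.0307 for Mir19a. For Mir17 every CPM of animals 11 to 14 lay below those of animals 1 to 10 in bone marrow and muscle and above them in kidney, and for Mir18 below them in bone marrow and above them in kidney. Sex, animal set and pool cannot be told apart in these differences.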

How the results depend on the processing

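Leaving out 1 replicate, changing the scaling, the filter, the pool term, the tool or the copies gave 18 alternatives for the organ comparisons. All 6 members differed among organs in every one run; the Wald test was not run for that joint test, and a likelihood ratio test took its place. Of 34 calls, 16 held in all 18, or 14 without Mir19a in bone marrow and spleen, which cannot be read in pool N541 alone. Another 3 changed sign, all in pool N541 alone: Mir17 in bone marrow (-0.062), and Mir19a in lung (0.32) and pancreas (-10.42), the last 2 fitted against libraries at 0 counts. The number of calls ran from 30 without the library labelled Pancreas 11 to 39 on miRNA totals. With the animal as a replicate block 34 calls stood, the same 34 as without it, and the block changed no other call.

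Between bone marrow and spleen 0 members were called, against 1 with no pool term, 3 in pool N541 alone and 2 in animals 1 to 10 alone. By share, 1 member differed between them, against 0 in pool N541 alone (3 animals, too few to pass) and 3 in animals 1 to 10. In the testis-labelled libraries 0 members were called, against 1 with DESeq2 size factors, with no filter, with no pool term and by DESeq2's Wald test, and 0 to 1 when 1 of the 3 was left out. Of the set comparisons 26 were called, against 13 with no filter on low counts and 24 without the library labelled Pancreas 11. The cause was not tested for any of these shifts. Of 270 pairs of organs ordered by median CPM, 243 kept their order after TMM scaling and 262 on miRNA totals. Scaling moved the median of all genes in kidney from -0.33 on the TMM scale to -1.25 on library totals and in bone marrow from 0.29 to 1.09; 0 called members changed sign under any scaling. Settings with animals 1 to 10 alone, set comparisons without the library labelled Pancreas 11, with copies summed, without all pancreas libraries and edgeR's Poisson bound were chosen after the data were seen. Depth limits Mir17, Mir18, Mir19a and Mir20a in pancreas, where each was at 0 counts in at least 1 library.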
